A study of Homo sapiens with 5 samples.

Results

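Peaks of PRDM11 antibodies and of RNA polymerase II were examined at PRDM11 itself and at 4 other genes of its family, PRDM2, PRDM4, PRDM10 and PRDM15. A peak belonged to a gene when it lay within 5 kb of the gene's span on the human build hg19. By this rule the 5 genes held 499 of the 1150695 peaks in 6 deposited lists, which are 2 lists for each of 3 ChIP libraries. Chromatin came from untreated cells of the established human lymphoma line U2932 and was profiled by chromatin immunoprecipitation and sequencing (ChIP-seq), which enriches cross-linked DNA bound by the protein an antibody recognises. The precipitates were made with rabbit polyclonal PRDM11 antibody 1, rabbit polyclonal PRDM11 antibody 2, or an antibody to RNA polymerase II, which makes the transcripts of protein-coding genes. Rabbit IgG and input, which is chromatin that was not precipitated, were the controls, and each of the 3 ChIP libraries has a peak list called against IgG and another called against input. Both PRDM11 antibodies are described as non-commercial, and all 5 libraries come from the same untreated line. Each antibody has 1 library, so no value has an error between replicates, no comparison was tested and no p-value is given. Intervals in brackets are exact 95% intervals, binomial for shares and Poisson for densities. They assume independent peaks and count no error but that of counting. No read counts come with the positions, so the depth is unknown, and a peak shows enrichment at the caller's threshold and not expression of a gene.

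The PRDM proteins share a PR domain, which is related to the SET domain of histone methyltransferases, and most carry zinc fingers that bind DNA. They act as transcriptional regulators in differentiation, and PRDM1, which is not analysed here, is known as a driver of plasma cell differentiation in B cells. Some family genes are transcribed from more than 1 promoter into proteins with or without the PR domain. PRDM2, also called RIZ, is the classical case, with an internal promoter that gives a shorter product without that domain.

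RefSeq promoter windows, which run from 250 bases before to 50 bases after a start site, were found for 5 of 5 genes, with 13 windows in all on build GRCh38.p14. PRDM11 has 3 annotated start sites there, with the second 704 bp and the third 34397 bp downstream of the first. PRDM2 also has 3, with the second 3566 bp and the third 49227 bp from the first. PRDM4 has 1 start site, PRDM10 has 4 and PRDM15 has 2 that lie 16042 bp apart. The peaks are on hg19, so these windows were not placed on the peaks and no peak was assigned to a start site. The sequences below belong to all 3 start sites of PRDM11, the third of PRDM2, and the first of PRDM4, PRDM10 and PRDM15. Those of the other start sites are not printed, among them the fourth of PRDM10, which the account of the peaks mentions. They read 5′ to 3′ on the gene's strand, and capitals mark matches, on either strand, to the GC box, CCAAT box, ETS core, TATA box, E-box or YY1 motif, whose letters follow the sequences.
PRDM11 start site 1: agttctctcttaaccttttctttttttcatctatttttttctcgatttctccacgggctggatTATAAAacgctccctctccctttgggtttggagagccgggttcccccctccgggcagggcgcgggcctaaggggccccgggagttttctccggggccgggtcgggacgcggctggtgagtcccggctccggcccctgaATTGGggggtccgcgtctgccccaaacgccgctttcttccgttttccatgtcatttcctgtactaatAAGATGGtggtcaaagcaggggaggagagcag
PRDM11 start site 2: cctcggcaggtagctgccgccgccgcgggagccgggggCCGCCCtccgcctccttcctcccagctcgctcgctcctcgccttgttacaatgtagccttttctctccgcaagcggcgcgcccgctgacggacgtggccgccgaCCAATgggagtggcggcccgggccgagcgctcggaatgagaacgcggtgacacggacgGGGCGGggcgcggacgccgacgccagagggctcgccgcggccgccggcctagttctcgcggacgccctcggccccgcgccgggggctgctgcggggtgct
PRDM11 start site 3: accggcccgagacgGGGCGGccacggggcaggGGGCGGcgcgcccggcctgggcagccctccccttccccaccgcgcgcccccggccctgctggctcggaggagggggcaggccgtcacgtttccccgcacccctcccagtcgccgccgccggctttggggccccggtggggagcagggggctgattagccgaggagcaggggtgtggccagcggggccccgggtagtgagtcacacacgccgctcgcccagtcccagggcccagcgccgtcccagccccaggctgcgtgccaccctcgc
PRDM2 start site 3: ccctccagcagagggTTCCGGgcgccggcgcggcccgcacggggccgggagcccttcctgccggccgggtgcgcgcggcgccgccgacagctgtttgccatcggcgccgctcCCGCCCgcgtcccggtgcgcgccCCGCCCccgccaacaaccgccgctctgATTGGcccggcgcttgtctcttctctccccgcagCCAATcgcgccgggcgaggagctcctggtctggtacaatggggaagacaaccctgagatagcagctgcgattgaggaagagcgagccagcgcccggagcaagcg
PRDM4 start site 1: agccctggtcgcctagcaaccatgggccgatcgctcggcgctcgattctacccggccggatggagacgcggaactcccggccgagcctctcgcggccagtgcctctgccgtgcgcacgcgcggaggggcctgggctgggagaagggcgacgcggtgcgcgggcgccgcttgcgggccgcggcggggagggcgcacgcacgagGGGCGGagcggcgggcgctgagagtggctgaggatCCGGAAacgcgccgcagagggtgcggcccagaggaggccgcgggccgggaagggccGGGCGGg
PRDM10 start site 1: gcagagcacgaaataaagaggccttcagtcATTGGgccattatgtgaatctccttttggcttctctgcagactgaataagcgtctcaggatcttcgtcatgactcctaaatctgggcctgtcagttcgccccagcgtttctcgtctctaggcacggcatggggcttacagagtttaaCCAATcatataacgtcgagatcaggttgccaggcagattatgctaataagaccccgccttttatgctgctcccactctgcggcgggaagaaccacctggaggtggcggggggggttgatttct
PRDM15 start site 1: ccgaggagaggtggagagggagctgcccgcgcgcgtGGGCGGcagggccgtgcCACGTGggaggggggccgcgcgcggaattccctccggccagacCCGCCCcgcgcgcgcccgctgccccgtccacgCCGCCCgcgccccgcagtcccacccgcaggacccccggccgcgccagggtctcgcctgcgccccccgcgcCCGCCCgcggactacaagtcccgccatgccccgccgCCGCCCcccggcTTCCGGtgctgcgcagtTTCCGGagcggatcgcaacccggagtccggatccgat
No printed match overlaps another. The GC box was searched as GGGCGG and occurs in 45.0% of all 35116 RefSeq promoter windows. The CCAAT box, by the letters of its name, occurs in 34.6%. For the ETS core the letters were CCGGAA and the share is 17.2%. The TATA box was read as TATAAA, which 11.5% of the windows hold. The E-box letters CACGTG are found in 7.26% of windows, and the YY1 motif AAGATGG in 5.84%. The PRDM15 window holds 5 GC boxes, 2 ETS cores and 1 E-box, at a GC content of 80.0%. Only 2.63% of all windows have a GC content at least as high. PRDM4 (77.3% GC, 47 CpG dinucleotides) and the second PRDM11 window (76.0%, 48 CpG) are also CpG-rich against a median of 14 CpG over all windows. So are the third windows of PRDM2 (73.7%, 41 CpG) and PRDM11 (79.0%, 32 CpG). The first PRDM11 window is the one printed with a TATA box and a YY1 motif, at 57.7% GC. PRDM10 differs from the CpG-rich windows, with 51.7% GC, 13 CpG, 2 CCAAT boxes and no GC box. These matches describe the letters only and say nothing about whether a factor binds.

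All 5 genes held peaks of every antibody, but in very unequal numbers. Antibody 1 called against IgG gave 10 peaks, of which 5 lay at PRDM15, 2 at PRDM2 and 1 each at PRDM11, PRDM4 and PRDM10. RNA polymerase II gave 100 peaks, of which 58 lay at PRDM15, 30 at PRDM2, 8 at PRDM10 and 2 each at PRDM11 and PRDM4. Antibody 2 gave 124 peaks, with 38 at PRDM2, 36 at PRDM15, 27 at PRDM11, 16 at PRDM10 and 7 at PRDM4. Against the density over all chromosomes, the 5 genes together were richest in RNA polymerase II, with 19.3 peaks per 100 kb (15.7 to 23.5) and 1.67 over the whole list, a ratio of 11.6. For antibody 1 the densities were 1.93 (0.926 to 3.55) at the genes and 0.45 in the whole list, a ratio of 4.29, and for antibody 2 they were 23.9 (19.9 to 28.5) and 15.5, a ratio of 1.54. PRDM15 accounts for much of this, since without it the ratios were 5.89 for RNA polymerase II (4.25 to 7.96), 2.61 for antibody 1 (0.846 to 6.08, which includes a ratio of 1) and 1.33 for antibody 2 (1.07 to 1.64). The whole list covers intergenic sequence as well as genes, and no comparison was made with other genes of like length.

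**Figure D1:**
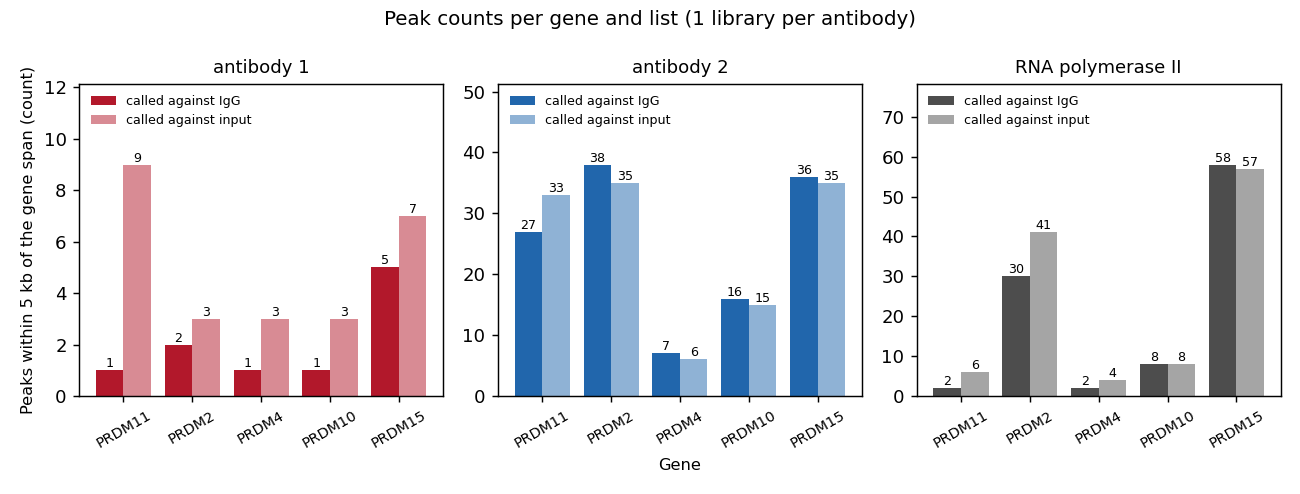
Bars give the number of peaks within 5 kb of each gene span (y axis) for the 5 genes (x axis), in 1 panel per antibody, with dark bars for the lists called against IgG and pale bars for those called against input. PRDM15 has the most RNA polymerase II peaks under either control, 58 and 57, and PRDM11 has 1 antibody 1 peak against IgG and 9 against input.

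Counts in the lists called against IgG were set beside those of stretches of the same length laid end to end over all chromosomes. At PRDM15, the share of stretches with at least as many peaks was 0.0486% for RNA polymerase II, 0.921% for antibody 1 and 0.605% for antibody 2. At PRDM2 the shares were 1.14% for RNA polymerase II, 14.4% for antibody 1 and 6.36% for antibody 2. At PRDM11 26.6% of stretches had at least as many RNA polymerase II peaks, 31.1% as many antibody 1 peaks and 32.1% as many antibody 2 peaks. The antibody 1 density of PRDM11 depended on the control: against input it was 6.41 peaks per 100 kb (2.93 to 12.2) and 1.8 over the whole list, while against IgG it was 0.712 (0.018 to 3.97) and 0.45. PRDM10 had shares of 6.91% for RNA polymerase II, 27.0% for antibody 1 and 58.8% for antibody 2. PRDM4 had shares of 10.9% for RNA polymerase II, 11.7% for antibody 1 and 40.9% for antibody 2. These stretches include gene-poor sequence and serve as a description, not as a test.

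Of the 10 antibody 1 peaks at the 5 genes called against IgG, 9 overlapped an RNA polymerase II peak (90.0%, interval 55.5% to 99.7%), against 55.2% of the whole antibody 1 list. However, 5 of the 9 lay in 1 RNA polymerase II peak of PRDM15. Without PRDM15 the share was 4 of 5 (80.0%, interval 28.4% to 99.5%), and this interval includes 55.2%. With at least 50% of the peak covered it was 7 of 10 (70.0%, interval 34.8% to 93.3%). Overlap with antibody 2 was found for 6 of 10 (60.0%, interval 26.2% to 87.8%), against 47.2% of the whole list, which lies inside the interval. All 3 libraries overlapped at 5 of the 10 antibody 1 peaks, which were both peaks of PRDM2, the peak of PRDM4, that of PRDM10 and 1 of 5 at PRDM15. The whole list had 32.6% of its peaks in this class. The PRDM11 peak lay in antibody 2 alone and the other 4 of PRDM15 in RNA polymerase II alone, and no peak was in neither, a class that makes up 30.2% of the whole list. Each of the 10 was also called against input, as were 81.3% of all antibody 1 peaks. None of them had the minimum width of 123 bp, at which 20.4% of the whole list lies, and their median width was 202 bp, against 184 bp over the list. From the side of RNA polymerase II, 5 of its 100 peaks at the genes held an antibody 1 peak (5.00%, interval 1.64% to 11.3%), against 14.3% of its whole list. PRDM15 supplied 58 of the 100 peaks and 1 of the 5. Each of the other genes had an interval that includes 14.3%, and the share without PRDM15 was not calculated. An antibody 2 peak was held by 23 of the 100 (23.0%, interval 15.2% to 32.5%), against 25.6%. The lists called against input gave 19 of 25 antibody 1 peaks in RNA polymerase II (76.0%, interval 54.9% to 90.6%), against 44.9% of the whole list, and 9 of 25 in antibody 2 (36.0%, interval 18.0% to 57.5%), against 34.8%. In the reverse direction they gave 12.9% and 25.9% of 116 RNA polymerase II peaks with antibody 1 and antibody 2, against 29.4% and 29.6%. Here PRDM15 held 57 of the 116 peaks, and the antibody 1 shares of single genes ran from 5.26% at PRDM15 to 83.3% at PRDM11.

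**Figure D2:**
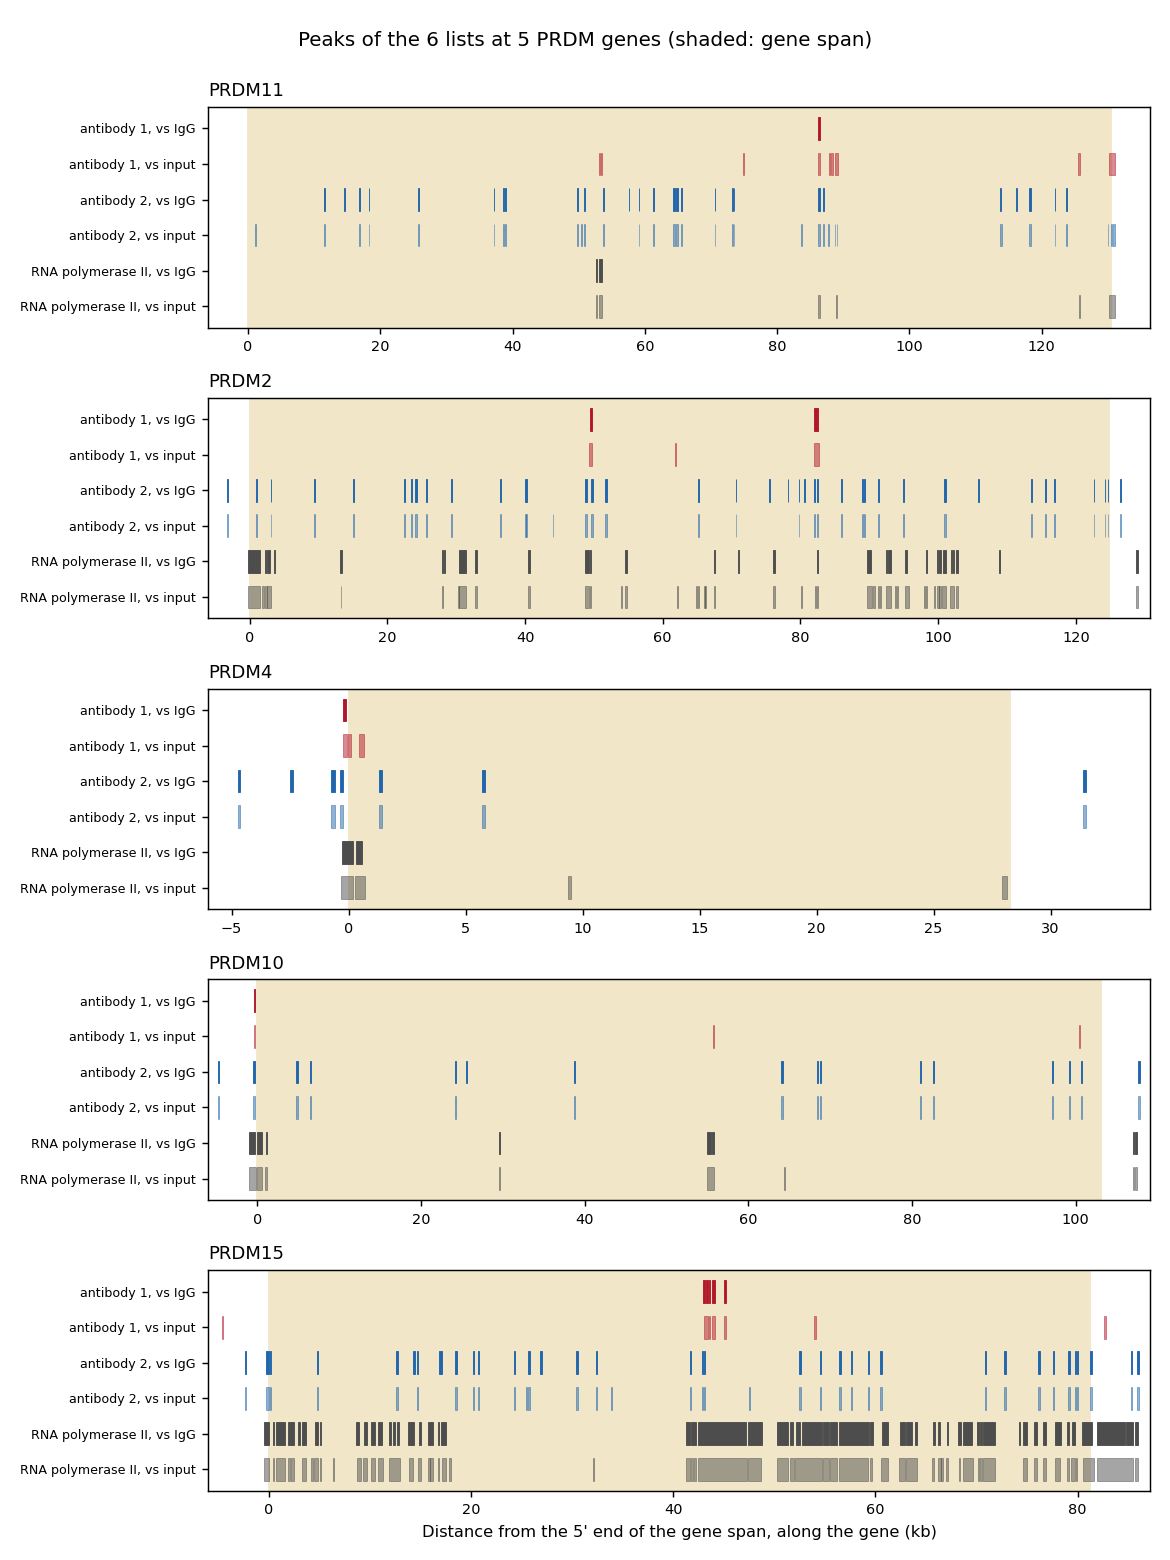
Each panel shows 1 gene, with position along the gene in kb from the 5′ end of its span (x axis) and 1 row per list, dark for the lists called against IgG and pale for those called against input; shading marks the span. Peaks have an outline of fixed width, so the shortest appear wider than they are, and PRDM15 shows RNA polymerase II peaks at both ends of its span; in between, the longest stretch without them is 23793 bp against IgG and 14093 bp against input.

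Within 1 kb of the 5′ end of the span, antibody 1 had a peak at 2 of 5 genes (PRDM4 and PRDM10), antibody 2 at 4 of 5 and RNA polymerase II at 4 of 5. Over all 2-kb bins of the genome, 0.851% touched an antibody 1 peak, 27.2% an antibody 2 peak and 2.56% an RNA polymerase II peak. Among the bins that touched an RNA polymerase II peak, 20% touched an antibody 1 peak and 54.8% an antibody 2 peak. The lists called against input gave the same 2, 4 and 4 genes, beside 2.77%, 27.7% and 3.81% of bins. PRDM11 was the gene without any peak there, and its nearest antibody 2 peak began 11457 bp from the 5′ end against IgG and 1090 bp against input. Its hg19 span is 130437 bp, while the RefSeq gene on GRCh38 is 140951 bp long. The span's 5′ end is thus less certain for PRDM11 than for the other 4 genes, whose lengths differ by at most 87 bp between the sources. The lack of a peak within 1 kb of it therefore does not show that the start sites of PRDM11 lack peaks.

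PRDM11, the gene of the protein the antibodies were raised against, had few antibody 1 and RNA polymerase II peaks against IgG. All began at least 52556 bp from the 5′ end of the span, an end that is less certain here, as stated above. Its 27 antibody 2 peaks against IgG lay between 11457 and 123859 bp from that end, at 19.2 per 100 kb (12.7 to 28.0) and 15.5 over the whole list. RNA polymerase II had 2 peaks against IgG, at chr11:45168120-45168318 (199 bp) and chr11:45168598-45169023 (426 bp), which begin 52556 and 53034 bp from the 5′ end. The 1 antibody 1 peak (chr11:45201760-45201978, 219 bp) lay another 32736 bp beyond the last of these. All 219 bp of it fell inside the widest antibody 2 peak of the gene, chr11:45201756-45202070 (315 bp). Of all antibody 2 peaks 0.859% are at least that wide, and 39.8% of antibody 1 peaks are at least as wide as the antibody 1 peak. The antibody 2 peak is the widest of 27 and the antibody 1 peak the only one, so these shares cannot be compared. No antibody 2 peak of PRDM11 touched RNA polymerase II in these lists (0 of 27, interval 0 to 12.8%), and 20 of the 27 had the minimum width. The first RNA polymerase II peak and the antibody 1 peak begin 33640 bp apart, and RefSeq's start sites 1 and 3 are 34397 bp apart on GRCh38. These distances differ by more than the 219 bp width of the antibody 1 peak. Start sites 1 and 2 are 704 bp apart on GRCh38. The 2 RNA polymerase II peaks against IgG run from 52556 to 52754 bp and from 53034 to 53459 bp from the 5′ end of the span. Whether the peaks lie at those start sites was not tested, because the positions come from different builds.

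The choice of control changed PRDM11 more than any other of the 5 genes in its antibody 1 count. Against input it had 9 antibody 1 peaks, 33 antibody 2 peaks and 6 RNA polymerase II peaks, against 1, 27 and 2 with IgG. Of the 9 antibody 1 peaks, 1 was found with IgG; over the whole input list this share was 19.5%. The widest of the 9 (chr11:45245769-45246612, 844 bp) straddled the 3′ end of the span and overlapped an RNA polymerase II peak of 821 bp and antibody 2 peaks, and none of the 3 libraries had a peak at that place against IgG. At the antibody 1 peak described above, RNA polymerase II also had a peak against input (chr11:45201739-45202065, 327 bp), so the separation of the PRDM11 peak from RNA polymerase II holds only with IgG. Likewise 2 antibody 1 peaks, of 123 and 140 bp, lay against input at the RNA polymerase II peak that begins 53029 bp from the 5′ end.

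PRDM2, which encodes a histone methyltransferase with a PR domain and a shorter product without it, had RNA polymerase II peaks along much of its span. Against IgG none lay between 13346 and 27945 bp from the 5′ end, or between 109005 and 128767 bp, which is past the 3′ end. Against input none lay between 102840 and 128755 bp. As a share of single peaks, 0.923% of all RNA polymerase II peaks are at least as wide as the widest of PRDM2, which is a maximum over 30. That peak (chr1:14026566-14028254, 1689 bp) covered the 5′ end. Antibody 1 had no peak there, while antibody 2 had a 123 bp peak 904 bp downstream of the 5′ end, inside that RNA polymerase II peak. The first antibody 1 peak came far into the gene, at chr1:14076105-14076442 (338 bp), between 49370 and 49707 bp from the 5′ end. It shared 154 bp with the widest antibody 2 peak of the gene (chr1:14076289-14076647, 359 bp) and contained an RNA polymerase II peak of 129 bp. Just upstream lay a broader RNA polymerase II peak (chr1:14075436-14076040, 605 bp), from 48701 to 49305 bp, which contained another antibody 2 peak of 228 bp. On GRCh38 the third PRDM2 start site, whose sequence is shown above, is 49227 bp from the first, and the gene lengths of the 2 builds are 124838 bp for the hg19 span and 124892 bp for RefSeq.

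In the lists called against IgG, the second antibody 1 peak of PRDM2 lay at chr1:14108694-14109306 (613 bp). Of all antibody 1 peaks 6.79% are at least that wide, which is a share of single peaks, while this peak was the widest of 10 at the 5 genes. It shared 407 bp with antibody 2 peaks, of 258 and 194 bp, and 167 bp with an RNA polymerase II peak of 200 bp. Counting the sites above, RNA polymerase II had 30 peaks at the gene, of which 14 were 200 bp or wider, and together they covered 6.77% of the window, against 0.597% of all chromosomes. Of the 38 antibody 2 peaks, 5 overlapped RNA polymerase II peaks (13.2%, interval 4.41% to 28.1%), against 3.2% of the whole antibody 2 list.

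PRDM4, a zinc finger protein that recruits the arginine methyltransferase PRMT5 in mouse neural stem cells, and PRDM10, a zinc finger transcription factor that activates the tumour suppressor gene FLCN, had antibody 1 peaks just upstream of their 5′ ends. At PRDM4 the antibody 1 peak (chr12:108155010-108155166, 157 bp) ran from 252 to 96 bp upstream. It lay whole within an RNA polymerase II peak that spans the 5′ end (chr12:108154715-108155183, 469 bp). The antibody 2 peak nearest the 5′ end (chr12:108155156-108155278, 123 bp) touched it by 11 bp only, so this overlap does not reach 50% of the antibody 1 peak. The widest antibody 2 peak, of 181 bp, was farther upstream, and the second RNA polymerase II peak, of 251 bp, began 311 bp downstream. The RefSeq locus of PRDM4 also holds PRDM4-AS1, and a peak has no strand, so signal of the 2 genes cannot be told apart.

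At PRDM10 the 3 libraries were nested in each other. The antibody 1 peak (chr11:129873013-129873181, 169 bp) ran from 451 to 283 bp upstream of the 5′ end, the antibody 2 peak around it (chr11:129872997-129873227, 231 bp) from 497 to 267 bp, and the RNA polymerase II peak around both (chr11:129872970-129873756, 787 bp) from 1026 to 240 bp. The same nesting of antibody 1 in antibody 2 in RNA polymerase II was present against input, with widths of 191, 231 and 818 bp. A further RNA polymerase II peak of 503 bp began 11 bp downstream of the 5′ end, and another of 201 bp began 1008 bp downstream. PRDM10-DT, a noncoding gene, lies at the 5′ end of PRDM10 in RefSeq, and the upstream peaks are not assigned to either gene. Inside the gene, RNA polymerase II had 428 and 207 bp peaks that begin 54955 and 55609 bp from the 5′ end, and the fourth RefSeq start site is 55251 bp from the first on GRCh38. Other RNA polymerase II peaks were 129 bp wide in mid-gene and 129 and 199 bp wide past the 3′ end, where NFRKB is the neighbouring gene. The widest antibody 2 peak, of 255 bp, also lay past the 3′ end.

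**Figure D3:**
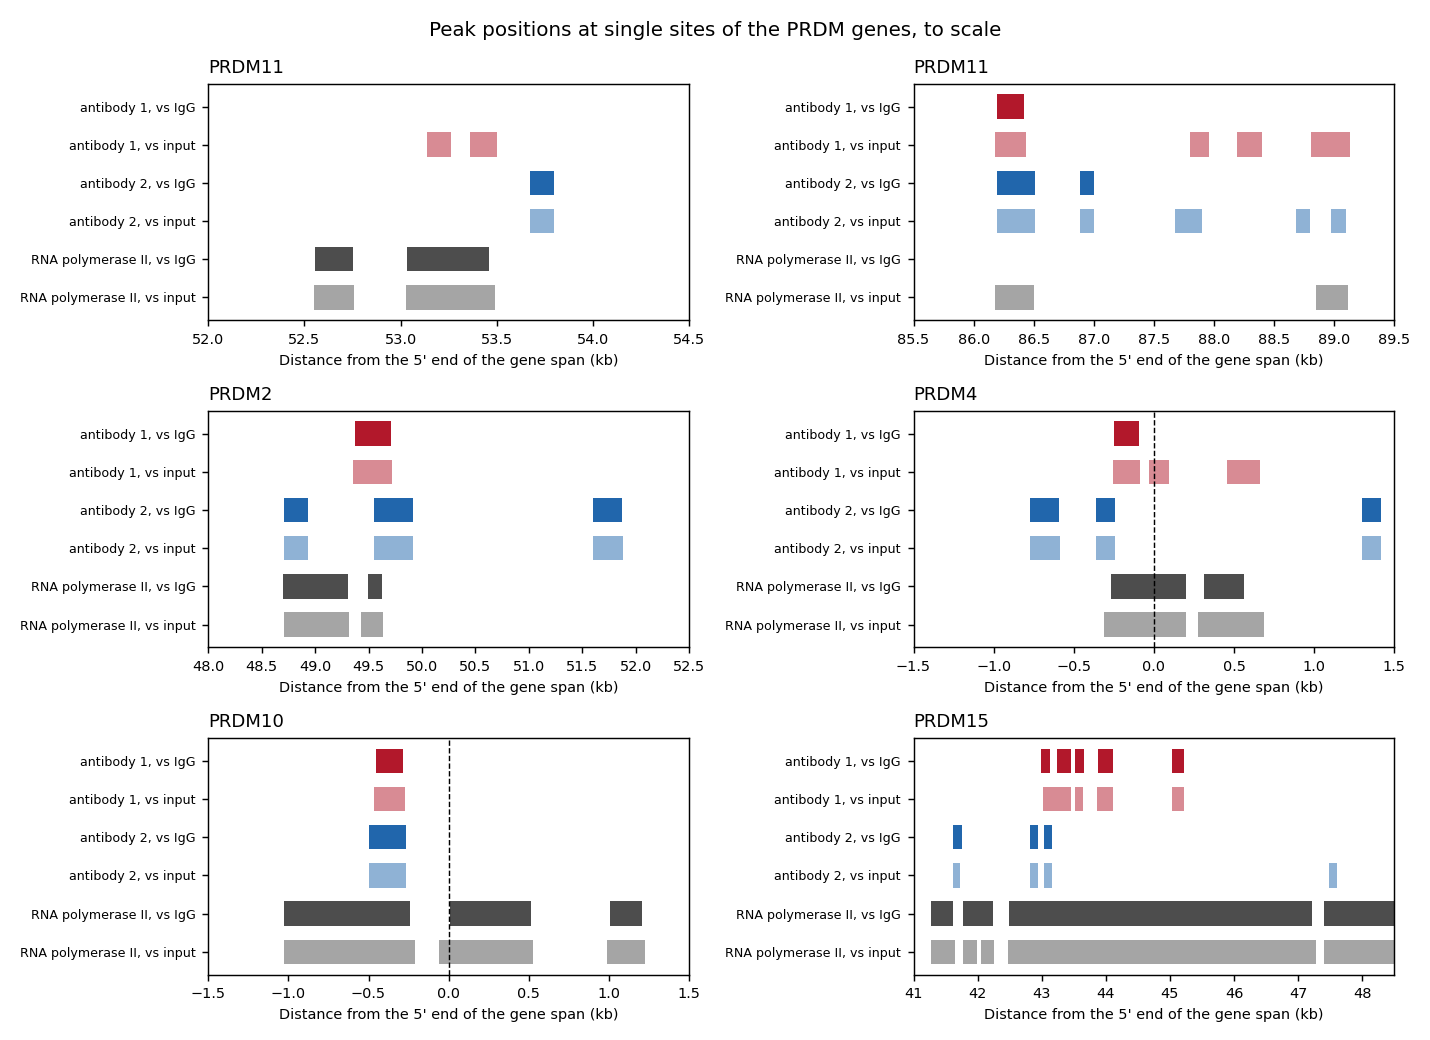
Peaks at 6 sites are drawn to scale against the distance from the 5′ end of the gene span in kb (x axis; dashed line, the 5′ end), with 1 row per list, dark for lists called against IgG and pale for those called against input. Antibody 1, antibody 2 and RNA polymerase II peaks are nested at PRDM10, and 5 antibody 1 peaks called against IgG lie within a single RNA polymerase II peak of 4717 bp at PRDM15.

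PRDM15, a zinc finger protein that sustains pluripotency in mouse embryonic stem cells and is needed by B cell lymphomas, stood out among the 5 genes by its RNA polymerase II peaks. These numbered 58 against IgG and 57 against input and covered 37.5% and 39.6% of the window, against 0.597% and 0.993% of all chromosomes. Like those of PRDM2 above, they were not spread evenly along PRDM15. In the IgG list 21 peaks lay in the first part of the gene, up to 17479 bp from the 5′ end, then none for 23793 bp, and 37 from 41273 bp onward. Against input 2 short peaks, of 134 and 130 bp, fell into that stretch, and the longest one without a peak was 14093 bp. The stretch held 8 antibody 2 peaks and no antibody 1 peak in the IgG lists.

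The part beyond the stretch held the widest RNA polymerase II peak of the 5 genes, chr21:43252384-43257100 (4717 bp), between 42491 and 47207 bp from the 5′ end. Of all RNA polymerase II peaks 0.0578% are at least that wide, which is a share of single peaks, and this peak was the widest of 100. All 5 antibody 1 peaks of PRDM15 called against IgG lay in it, at chr21:43256463-43256605, chr21:43256131-43256354, chr21:43255928-43256077, chr21:43255480-43255717 and chr21:43254368-43254552, with widths of 143, 224, 150, 238 and 185 bp. Together they spanned 2238 bp. In the whole list called against IgG, 4 of 50161 RNA polymerase II peaks (0.00797%) held 5 or more antibody 1 peaks. The cut of 5 is the count at this peak, and the median width in that list is 246 bp. Most of its peaks thus have little room for 5 antibody 1 peaks, and 29 are at least 4717 bp wide. No comparison was made with peaks of like width. Against input the matching RNA polymerase II peak, of 4806 bp, held 4 of the 7 antibody 1 peaks of PRDM15, and the other 3 lay 4543 bp upstream of the 5′ end and 53956 and 82638 bp downstream of it. An antibody 2 peak of 123 bp overlapped the first of the 5, by 95 bp, and the other 4 touched none. Such closely spaced peaks of 1 antibody in 1 library are not independent of each other. The other peaks of RNA polymerase II that reached 1000 bp lay farther on, at 1356, 1120, 1989, 2907 and 2828 bp, and the last of these began beyond the 3′ end of the span.

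At its 5′ end PRDM15 had no antibody 1 peak within 1 kb. The widest antibody 2 peak of the gene (chr21:43299623-43299891, 269 bp) lay there, from 300 to 32 bp upstream, and shared 262 bp with an RNA polymerase II peak of 441 bp (chr21:43299630-43300070). Of the 36 antibody 2 peaks of PRDM15, 19 overlapped RNA polymerase II peaks by at least 1 bp (52.8%, interval 35.5% to 69.6%). Those RNA polymerase II peaks cover 37.5% of the window, which lies inside the interval. Coverage counts bases and not peaks that touch, so it is no reference for this share. PRDM15 thus supplied 19 of the 26 such antibody 2 peaks at the 5 genes, which made up 21.0% of 124 (interval 14.2% to 29.2%). Without PRDM15 the share was 7.95% (interval 3.26% to 15.7%), against 3.2% of the whole antibody 2 list. Against input 35 of 124 did so at the 5 genes (28.2%, interval 20.5% to 37.0%) and 6.29% in the whole list. With at least 50% of the antibody 2 peak covered, the lists called against IgG gave 18 of 124 (14.5%, interval 8.84% to 22.0%). Of the antibody 2 peaks at the 5 genes 75.0% had the minimum width of 123 bp, against 78.4% of the whole list.

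Agreement between controls differed by library at the 5 genes. Of the peaks called against IgG, all 10 of antibody 1, 94 of 100 of RNA polymerase II and 111 of 124 of antibody 2 were found again against input, or 100%, 94.0% and 89.5%, against 81.3%, 89.4% and 93.2% of the whole lists. In the other direction, 9 of 25 antibody 1 peaks (36.0%), 86 of 116 of RNA polymerase II (74.1%) and 111 of 124 of antibody 2 (89.5%) were found against IgG, and the shares of the whole lists were 19.5%, 52.4% and 89.1%. The limit of 5 kb cut close to a peak for RNA polymerase II at PRDM15, where a peak of 251 bp at 4487 bp from the span was counted and one of 252 bp at 5074 bp was not. These values and the next are from the lists called against IgG. For antibody 1 the outermost peak counted was 283 bp from its span and the nearest one not counted, of 123 bp near PRDM4, was 14347 bp away. For antibody 2 these distances were 4691 bp at PRDM15 and 7321 bp at PRDM2.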

How the data were processed

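Chromatin of U2932 cells was immunoprecipitated and sequenced in 3 ChIP libraries, with rabbit IgG and input as controls. Per the submitters' processing notes the tools were MACS2 2.0.9, Bowtie 0.12.7 and SAMtools, and the build hg19; settings are not given in the sources used here. The authors deposited 6 peak lists of 3 columns (chromosome, start, end), with no other value or score; the control and a q threshold of 0.1 are known from the lists' names. Depth is unknown.

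Starts were counted from 1. Samples were grouped by antibody. Peaks within 5 kb of 5 hg19 spans were counted, with strand from RefSeq; overlap meant at least 1 bp. All genes are named; of the 100 RNA polymerase II peaks, those of PRDM2 and PRDM15 are summarised. Other family genes were not analysed here for lack of hg19 positions. Alternatives covered control, flank, width, overlap and window; leaving out PRDM15 was added after seeing the data. The genes and lists were chosen with earlier results of these data known. Python 3.11.15, NumPy 2.4.6, pandas 2.3.3, SciPy 1.17.1 and matplotlib 3.10.9 were used. The overlap code was tested on simulated data and against bedtools 2.31.1.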

Additional observations from a re-analysis of the deposited data

How the results depend on the processing

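Counts over the 5 genes moved by more than a factor of 1.5 under 2 settings. Against input, antibody 1 had 25 peaks in place of 10; among peaks of 200 bp or wider, antibody 1 had 5 and antibody 2 had 17 in place of 124, by construction fewer. The density ratio of RNA polymerase II was 8.37 against input, in place of 11.6. Without PRDM15, a choice made after seeing the data, that ratio was 5.89, 100% of 5 antibody 1 peaks overlapped antibody 2 in place of 60.0%, and the share of antibody 2 peaks in RNA polymerase II was 7.95% in place of 21.0%. The cause of the shifts with control was not tested. The other 50 of 57 alternatives for the 5 genes together stayed within their interval or the factor of 1.5, as did 53 of 75 counts of single genes. Intervals over 10 antibody 1 peaks are wide, so staying inside them says little. No paired analysis was possible because each antibody has 1 library, and for the same reason no library was left out.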
